A study of Homo sapiens with 6 samples.

Results

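The circadian clock genes examined here were PER1, PER2, PER3, CRY1, CRY2, CLOCK, NR1D1, NR1D2, DBP and TEF, taken by name as core clock and clock output genes. All 10 were found among the 61731 genes and loci of the table, and all 10 reached the mean of 1 TPM that was required for testing. TPM expresses a gene's share of the transcripts in a library after correction for transcript length, so that levels of different genes can be compared. The libraries came from U87 (U87-MG), an established human glioblastoma line. There were 3 libraries of the Normal control genotype, the negative control of the study, and 3 labelled CHRM Knockdown, in which a lentivirus was meant to lower CHRM3, the M3 muscarinic acetylcholine receptor. All cells were of this single line and were grown in medium with fetal bovine serum. Neither the labels nor the methods say which knockdown sequence the sequenced cells carried, whether separate cultures were used for the libraries of one group, or when in the day the cells were harvested. P-values therefore measure only the spread between these libraries, and harvest time cannot be told apart from the group.

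The mammalian clock is a feedback loop of transcription. The proteins CLOCK and BMAL1 (or NPAS2 in the place of CLOCK) bind E-box sequences and switch on the PER and CRY genes, whose proteins return to the nucleus and block CLOCK and BMAL1. A second loop runs through NR1D1 and NR1D2, which encode the nuclear receptors REV-ERBα and REV-ERBβ. These repress BMAL1, NPAS2 and NFIL3 through RORE sequences, where the ROR receptors activate instead. DBP and TEF are activators of the PAR bZIP family that bind D-box sequences, where NFIL3 competes as a repressor. Cultured cell lines can carry this loop, and their cells drift out of phase unless a stimulus such as serum or a glucocorticoid sets them together.

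The promoter sequences are shown first, since the loop is known to reach its genes through these elements. RefSeq promoter windows (build GRCh38.p14, 250 bases before to 50 bases after a start) were available for all 10 genes, in 15 windows. They were searched on both strands for the E-box CACGTG, its variant E′-box CACGTT, the D-box TTATGTAA or TTACGTAA, the RORE core TAGGTCA or TGGGTCA, and the cAMP response element TGACGTCA. No searched word contains another. The E-box was in 4 windows, of PER1, NR1D2 and both starts of TEF, and the E′-box in 5, of PER2, CRY1, CRY2, CLOCK and NR1D1. The D-box was in 3 windows (PER2, PER3, NR1D2) and the RORE core in 3 (CRY2, CLOCK, NR1D2). Of all 34943 windows of this length, 7.23% held the E-box, 5.35% the E′-box, 1.02% the D-box, 5.68% the RORE core and 1.84% the cAMP response element, which was in 0 of the 15. The windows of DBP held none of these words. A match is a description of letters, not a binding site.

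The 30 bases around a match are given for the REV-ERB gene NR1D1, for CRY2 and PER2, and for BMAL1 and NFIL3, which REV-ERB is known to repress. They are written on the strand of the gene with the match in capitals. An E′-box that reads AACGTG and a RORE core that reads TGACCTA or TGACCCA lie on the opposite strand. Another window of BMAL1 and another of NFIL3 held no RORE core. The window of NPAS2, also named above as a REV-ERB target, held none of the searched words.
NR1D1, E′-box, chr17:40100740-40100769, minus strand: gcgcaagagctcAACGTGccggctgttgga
CRY2, E′-box, chr11:45847275-45847304, plus strand: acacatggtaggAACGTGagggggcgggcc
CRY2, RORE core, chr11:45847399-45847428, plus strand: ttgcggcgtcaTAGGTCActgggcgggcta
PER2, E′-box, chr2:238288790-238288819, minus strand: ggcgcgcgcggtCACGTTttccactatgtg
PER2, D-box, chr2:238288595-238288624, minus strand: cccgctgcggcTTACGTAAccgccgccggc
BMAL1, RORE core, chr11:13277809-13277838, plus strand: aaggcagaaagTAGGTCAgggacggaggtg
NFIL3, RORE core, chr9:91423823-91423852, minus strand: gcgctcggaacTGACCTActaacacacatc

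NR1D2 was the gene with the most matches, and the 250 bases before its downstream start are shown whole. From left to right the capitals mark a D-box on the opposite strand, an E-box, a RORE core on the opposite strand and a second E-box.
NR1D2, chr3:23945871-23946120, plus strand: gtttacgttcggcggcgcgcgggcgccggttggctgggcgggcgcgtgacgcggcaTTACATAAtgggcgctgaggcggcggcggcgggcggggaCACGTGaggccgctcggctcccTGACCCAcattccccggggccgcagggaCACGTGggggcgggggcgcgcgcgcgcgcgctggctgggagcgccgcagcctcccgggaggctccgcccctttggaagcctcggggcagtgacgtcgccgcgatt

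CHRM3 itself was at 0.02, 0.09 and 0.13 TPM in control replicates 1, 2 and 3 and at 0.13, 0.01 and 0.02 TPM in the knockdown-labelled replicates, so every direction below rests on the labels. The paper reports efficient CHRM3 knockdown in U87-MG cells, without saying whether the sequenced cells were the same ones. All 5 markers fixed for a mesenchymal glioma line (VIM, CD44, FN1, NES, TNC) were expressed, with summed levels between 8577 and 9013 TPM over the 6 libraries. Most of this sum was VIM, at 6528 to 7451 TPM, and NES was the lowest of them at 1.98 to 4.01 TPM. Of the 5 glial lineage markers only GFAP had a mean of at least 1 TPM, and AQP4 was listed at 0 in all libraries. The highest single value was 0.33 TPM over 5 leukocyte markers, 0.17 TPM over 3 endothelial markers and 1.44 TPM over 3 epithelial markers (EPCAM).

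The 10 clock genes of the focus changed little between the groups of U87 libraries. Of the 10 genes, 3 were called lower in the knockdown-labelled libraries, namely NR1D1, NR1D2 and CRY2, none was called higher, and no log2 fold change reached 1 in either direction. Calls were made at an adjusted p under 0.05 in limma, over 13722 genes. Their share of 30.0% stood beside 36.1% of all tested genes called in either direction, 24.0% called lower and 12.1% called higher. The median log2 fold change was -0.08 for the 10 genes and -0.06 for all tested genes. At an unadjusted p under 0.05, 3 of the 10 were lower and 0 higher. The 3 values of one group lay wholly above or below those of the other for 5 of the 10 genes, against 50.2% of all tested genes. These shares are close to those of the whole transcriptome.

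The 3 calls depended on how TPM was scaled. After median-of-ratios scaling, which moved the median log2 fold change of all tested genes from -0.06 to 0.00, 0 of the 10 genes were called by limma, although 4 had an unadjusted p under 0.05 (3 lower and 1 higher). Quantile normalization also left 0 calls, with 3 genes at an unadjusted p under 0.05. The balance of all calls shifted with it, from 1660 higher and 3295 lower with TPM as deposited to 2306 higher and 2245 lower after median-of-ratios scaling. The plot of all 4 scalings shows the same order of the genes under each, with their values displaced by similar amounts.

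**Figure D1:**
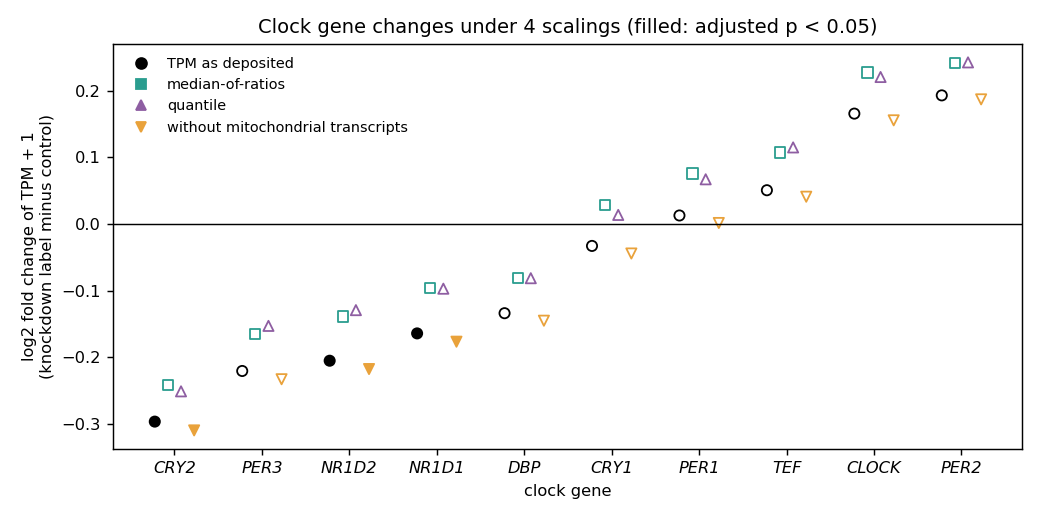
Log2 fold change of TPM + 1 (y axis, knockdown label minus control) of the 10 clock genes (x axis) with TPM as deposited, after median-of-ratios scaling, after quantile normalization and with mitochondrial transcripts left out; filled symbols mark an adjusted p under 0.05 in limma. CRY2, NR1D1 and NR1D2 are filled with TPM as deposited and without mitochondrial transcripts and open under the other scalings, where CRY1 lies above 0 instead of below.

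Among the 10 genes, the REV-ERB genes stood highest in level. The control means ran from 28.9 ± 0.734 TPM (SD, n = 3) for NR1D1 and 18.5 ± 0.554 TPM for NR1D2 down to 2.14 ± 0.216 TPM for PER2. Between them lay PER1, CRY1 and CLOCK, whose neighbouring ranges overlapped, then PER3, TEF and CRY2, whose neighbouring ranges also overlapped, and then DBP. In the knockdown-labelled libraries NR1D1, NR1D2 and PER1 were again the highest and PER2 the lowest. There CLOCK stood before CRY1 with overlapping ranges, TEF before PER3 without overlap, and the ranges of CRY2, DBP and PER2 each overlapped with the next. The coefficient of variation was 2.54% and 1.48% in the control and knockdown-labelled groups for NR1D1. It was lowest for NR1D1 among the controls and for TEF, at 0.674%, among the knockdown-labelled libraries, and highest for DBP in both, at 15.1% and 23.4%.

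**Figure D2:**
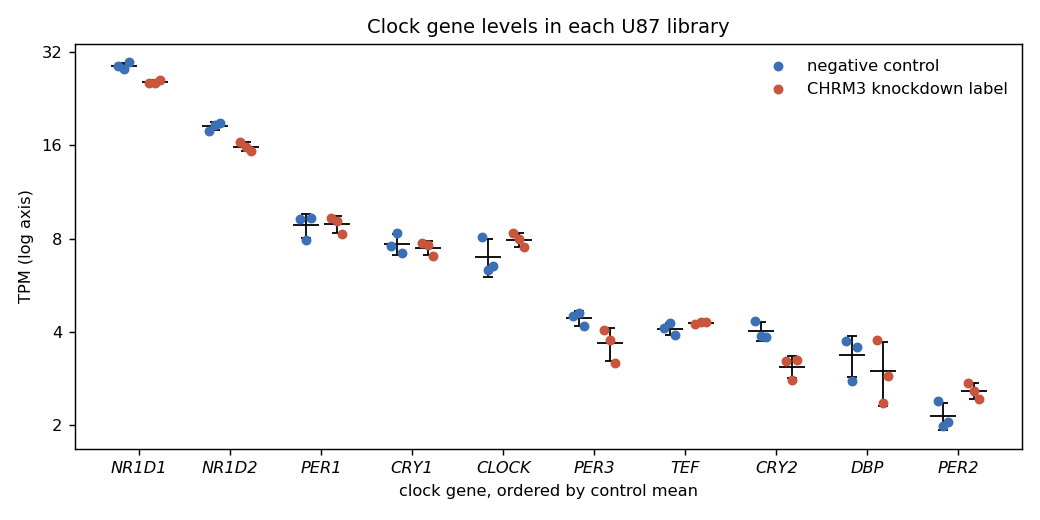
TPM (log axis) of the 10 clock genes in each library, ordered by control mean; points are libraries, the horizontal bar is the mean and the whiskers the SD of 3 libraries. The groups lie apart for NR1D1, NR1D2, CRY2 and PER3 (knockdown label lower) and for PER2 (higher), and overlap for the other 5 genes.

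Among the repressors of the second loop, both REV-ERB genes were lower. NR1D1 (ENSG00000126368; GRCh38 chromosome 17, 40092787 to 40100725, minus strand) was 28.78, 28.19 and 29.65 TPM in control replicates 1, 2 and 3 and 25.41, 25.46 and 26.09 TPM in the knockdown-labelled replicates. All knockdown-labelled values lay below all controls. The log2 fold change was -0.16 (standard error, SE, 0.0354, adjusted p = 0.0129 in limma). Its paralog NR1D2 (ENSG00000174738; chromosome 3, 23945260 to 23980618, plus strand) was 17.85, 18.57 and 18.94 TPM in the controls against 16.41, 15.87 and 15.34 TPM in the knockdown-labelled ones. Here too the groups did not overlap, and the log2 fold change was -0.21 (SE 0.0451, adjusted p = 0.0139 in limma). Both calls were kept in all 6 fits that each left out one library. With median-of-ratios scaling the log2 fold changes were -0.10 (adjusted p = 0.0776) for NR1D1 and -0.14 (adjusted p = 0.0546) for NR1D2.

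Both genes share bases with a neighbour on the opposite strand, and the strand setting of the authors' counting is not given in the sources used here. NR1D1 overlaps 1081 bases of THRA, the thyroid hormone receptor α gene, which was 6.87, 6.93 and 7.71 TPM in the controls against 6.58, 7.18 and 7.26 TPM in the knockdown-labelled ones. NR1D2 overlaps 1332 bases of NKIRAS1, at 9.90, 9.66 and 10.22 TPM in the controls against 9.08, 11.40 and 10.68 TPM in the knockdown-labelled ones. In both neighbours the groups overlapped.

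Of the cryptochromes, repressors that bind CLOCK and BMAL1 directly, CRY2 was called and CRY1 was not, and the difference between them was not tested. CRY2 (ENSG00000121671; chromosome 11, 45847118 to 45883248, plus strand) was 4.35, 3.88 and 3.85 TPM in the controls against 3.23, 2.80 and 3.25 TPM in the knockdown-labelled ones. All knockdown-labelled values lay below the controls, and at -0.30 the log2 fold change was the lowest of the 10 genes (SE 0.0891, adjusted p = 0.0418 in limma). This call was narrow: it was lost in each of the 6 fits that left out one library (adjusted p up to 0.127) and with median-of-ratios scaling (-0.24, adjusted p = 0.0844). CRY1 (ENSG00000008405; chromosome 12, 106991364 to 107093829, minus strand) was 7.58, 8.32 and 7.18 TPM in the controls against 7.76, 7.66 and 7.05 TPM in the knockdown-labelled ones. Its groups overlapped. The log2 fold change was -0.03 (95% interval -0.21 to 0.14, limma adjusted p = 0.758), and its sign turned (to 0.029) with median-of-ratios scaling.

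None of the 3 PER genes, the other repressors of the first loop, was called. PER1 (ENSG00000179094; chromosome 17, 8140472 to 8156506, minus strand), the PER gene known for its rapid response to stimuli, was 9.24, 7.94 and 9.34 TPM in the controls against 9.34, 9.15 and 8.26 TPM in the knockdown-labelled ones. The groups overlapped almost entirely, and the log2 fold change was 0.01 (95% interval -0.18 to 0.21). A protein-coding gene annotated on the same strand, ENSG00000263620, covers 5691 bases of PER1 and was itself between 8.92 and 17.02 TPM, so reads may be divided between them and the level of PER1 is uncertain.

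PER2 and PER3 had log2 fold changes of opposite sign. PER2 (ENSG00000132326; chromosome 2, 238244038 to 238290102, minus strand) was 2.39, 1.99 and 2.05 TPM in the controls against 2.75, 2.59 and 2.43 TPM in the knockdown-labelled ones, each above every control. Its log2 fold change was 0.19 (95% interval -0.05 to 0.43, limma adjusted p = 0.185). PER3 (ENSG00000049246; chromosome 1, 7784320 to 7845177, plus strand) was 4.52, 4.62 and 4.17 TPM in the controls against 4.06, 3.78 and 3.19 TPM in the knockdown-labelled ones, each below every control. Its log2 fold change was -0.22 (95% interval -0.45 to 0.01, limma adjusted p = 0.121). The summed level of the PER genes was 15.4 ± 0.809 TPM in the controls against 15.2 ± 1.17 TPM in the knockdown-labelled ones (SD, n = 3 each).

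The activator CLOCK (ENSG00000134852; chromosome 4, 55427903 to 55547138, minus strand), which binds DNA as a partner of BMAL1, was 8.13, 6.34 and 6.55 TPM in the controls against 8.33, 7.96 and 7.54 TPM in the knockdown-labelled ones. Control replicate 1 stood apart from the other controls and within the range of the knockdown-labelled libraries. The log2 fold change was 0.17 (95% interval -0.07 to 0.40, limma adjusted p = 0.232). Without control replicate 1 it was 0.26 with an adjusted p of 0.0460, the one fit in which CLOCK was called. CLOCK overlaps TMEM165 on the opposite strand, which was 69.36 to 72.80 TPM in the controls against 63.67 to 65.17 TPM in the knockdown-labelled ones.

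The D-box activators showed no call. DBP (ENSG00000105516; chromosome 19, 48630030 to 48637438, minus strand) was 3.74, 2.79 and 3.59 TPM in the controls against 3.76, 2.37 and 2.89 TPM in the knockdown-labelled ones. Its values were the most scattered of the 10 genes, and its log2 fold change of -0.13 had the widest interval (-0.51 to 0.24). TEF (ENSG00000167074; chromosome 22, 41367333 to 41399326, plus strand) was 4.12, 4.27 and 3.92 TPM in the controls against 4.25, 4.30 and 4.30 TPM in the knockdown-labelled ones. The groups overlapped, and the log2 fold change was 0.05 (95% interval -0.11 to 0.22, limma adjusted p = 0.605). DBP overlaps 688 bases of SPHK2 on the opposite strand, at 7.95 to 9.77 TPM in the controls against 7.28 to 7.56 TPM in the knockdown-labelled ones.

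The partners of these genes in the loop were then examined, from lists of 23 further clock genes, of which 18 were tested. Of the 18, 6 were called higher and 1 lower. These were 33.3% and 5.56% of the list, beside 12.1% and 24.0% of all tested genes, and the median log2 fold change of the list was 0.07. After median-of-ratios scaling 8 were called higher and 1 lower. The list was chosen with earlier results of these data known, so its shares are only a description. BMAL1, BMAL2, NPAS2, BHLHE40, NFIL3 and TIMELESS were called in every one of the 16 alternative fits.

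Of the 4 activators and ROR receptors tested, 3 were called, all higher, which is 75.0% beside 12.1% of all tested genes. BMAL1 (ENSG00000133794), the obligate partner of CLOCK, was 4.40, 5.47 and 5.30 TPM in the controls against 6.89, 9.22 and 7.60 TPM in the knockdown-labelled ones. Every knockdown-labelled value exceeded every control, with a log2 fold change of 0.55 (SE 0.120, adjusted p = 0.0133 in limma). NPAS2 (ENSG00000170485), a paralog of CLOCK, was 22.37, 21.93 and 22.87 TPM in the controls against 29.15, 33.19 and 28.75 TPM in the knockdown-labelled ones (log2 fold change 0.42, adjusted p = 0.00255 in limma). In U87 cells NPAS2 was thus the more abundant of the pair, since CLOCK averaged 7.01 TPM in the controls. BMAL2, a paralog of BMAL1, rose from 22.7 ± 0.0929 to 28.0 ± 1.21 TPM (SD, n = 3 each). RORA, which activates through the RORE, was 4.76 ± 0.567 and 6.07 ± 0.567 TPM in the controls and the knockdown-labelled libraries without passing the test (adjusted p = 0.0616). It was called higher after median-of-ratios scaling (log2 fold change 0.36, adjusted p = 0.0378), after quantile normalization and without control replicate 3. RORB did not exceed 0.06 TPM.

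NFIL3 (ENSG00000165030), the D-box repressor, had the largest log2 fold change of the 18 genes. It was 12.14, 14.07 and 11.52 TPM in the controls against 20.79, 17.36 and 20.87 TPM in the knockdown-labelled ones. The groups lay well apart, and the log2 fold change was 0.61 (SE 0.0981, adjusted p = 0.00412 in limma). HLF, the third PAR bZIP factor, was at 0.28 TPM or less in all libraries and was not tested.

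Of the other repressors and the enzymes that act on clock proteins, 13 of 15 were tested and 3 were called. That is 23.1% beside 36.1% of all tested genes. BHLHE40 (DEC1), which competes for E-boxes, rose from 103.3 ± 5.21 to 119.4 ± 0.829 TPM (SD, n = 3 each; log2 fold change 0.21). CSNK1A1, a casein kinase that phosphorylates PER proteins, rose by 0.22 on the log2 scale, a call that was lost without knockdown-labelled replicate 3 (adjusted p = 0.0511). TIMELESS, which also serves at replication forks, fell from 19.7 ± 0.698 to 15.1 ± 0.442 TPM (log2 fold change -0.36, adjusted p = 0.00152 in limma). The PER kinases CSNK1D and CSNK1E had log2 fold changes of -0.03 and -0.05, and CIART, a repressor with a strongly rhythmic transcript, had -0.05, none of them called. FBXL21P and PRKAA2 had means under 1 TPM over the 6 libraries and were not tested.

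**Figure D3:**
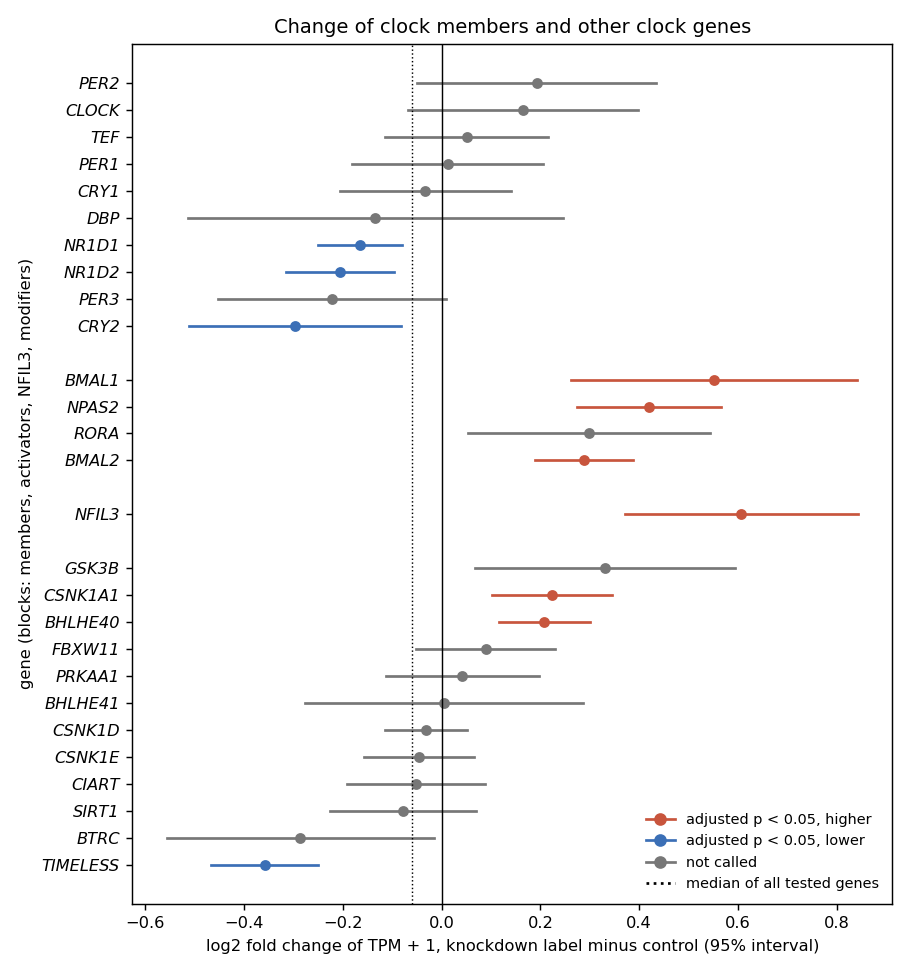
Log2 fold change of TPM + 1 with its 95% interval (x axis) for the 10 clock genes and the further clock genes that are reported (y axis), in blocks of members, activators, NFIL3 and modifiers; red marks calls higher and blue calls lower in the knockdown-labelled libraries, grey no call, and the dotted line the median of all tested genes at -0.06. The members lie between -0.30 and 0.19, whereas BMAL1, NPAS2 and NFIL3 lie at 0.42 to 0.61.

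Ratios within a library are not changed by scaling all its values with one factor, and 4 ratios of clock genes were taken as a description without a test. The ratio of NR1D1 to BMAL1, which are repressor and target, was 6.54, 5.15 and 5.59 in the controls against 3.69, 2.76 and 3.43 in the knockdown-labelled ones. Every knockdown-labelled library lay below every control, by -0.81 on the log2 scale on average. The single genes had log2 fold changes of -0.16 for NR1D1 and 0.55 for BMAL1. These were taken of TPM + 1 and the ratios of TPM as deposited, so the single values do not add up to the ratio's difference. DBP to NFIL3, the opposed D-box factors, was 0.308, 0.198 and 0.312 in the controls against 0.181, 0.137 and 0.138 in the knockdown-labelled ones, a difference of -0.83 on the log2 scale. Again the groups did not overlap, although control replicate 2 came close to knockdown-labelled replicate 1. Here the single genes had log2 fold changes, again of TPM + 1, of -0.13 for DBP, not called, and 0.61 for NFIL3.

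The other ratios were between repressors and moved less. PER2 to CRY1 was 0.315, 0.239 and 0.286 in the controls against 0.354, 0.338 and 0.345 in the knockdown-labelled ones. PER1 to PER2 was 3.87, 3.99 and 4.56 in the controls against 3.40, 3.53 and 3.40 in the knockdown-labelled ones. The groups lay apart in both, by 0.31 and -0.26 on the log2 scale. Among single genes, 50.2% of those tested did not overlap between the groups, and no such share was taken over pairs of genes.

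**Figure D4:**
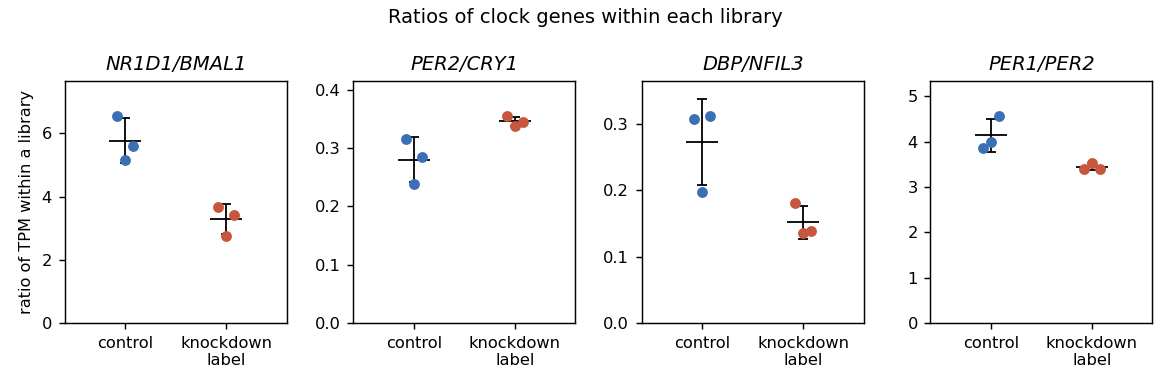
Ratio of TPM within each library (y axis) for NR1D1/BMAL1, PER2/CRY1, DBP/NFIL3 and PER1/PER2 in control and knockdown-labelled libraries; points are libraries, bars the mean and whiskers the SD of 3 libraries. NR1D1/BMAL1 falls from 5.76 to 3.29 and DBP/NFIL3 from 0.273 to 0.152 on average, with no overlap of the groups.

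Genes known as outputs of the clock did not share one direction. Of 9 listed, 7 were tested, 3 were called higher and 3 lower, 85.7% beside 36.1% of all tested genes. The list was chosen with earlier results of these data known, so this share is only a description. NAMPT, the NAD salvage enzyme whose promoter CLOCK and BMAL1 are known to drive, fell from 295.9 ± 5.44 to 136.9 ± 4.20 TPM (log2 fold change -1.11, adjusted p = 3.65e-06 in limma). CDKN1A, which encodes the cell cycle inhibitor p21, fell from 321.4 ± 4.56 to 216.8 ± 3.91 TPM. NOCT, which encodes nocturnin, was 6.01 ± 0.0839 and 4.70 ± 0.540 TPM (adjusted p = 0.0325), and this call was lost with median-of-ratios scaling (adjusted p = 0.0650) and in 5 of the 6 fits that left out one library. TSC22D3 rose from 15.5 ± 0.194 to 22.2 ± 0.858 TPM, and KLF10 from 42.3 ± 1.59 to 49.5 ± 0.997 TPM. The kinase gene WEE1 rose from 9.23 ± 0.473 to 11.5 ± 1.04 TPM (adjusted p = 0.0279), a call lost in 4 of the 6 such fits. KLF9 was 3.76 ± 0.101 and 3.20 ± 0.110 TPM and was not called.

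Genes that glucocorticoids, cAMP or serum induce were listed because the same stimuli induce PER1 and set the clock. Of these 9 genes, 5 were called higher and 0 lower in limma, with 0 lower at an unadjusted p under 0.05. That is 55.6% called higher beside 12.1% of all tested genes, in a list chosen with earlier results of these data known. DUSP1, a phosphatase of MAP kinases, rose from 130.3 ± 2.03 to 238.7 ± 2.72 TPM (log2 fold change 0.87, adjusted p = 2.79e-06 in limma), and the glucocorticoid target FKBP5 from 5.08 ± 0.0611 to 7.52 ± 0.238 TPM. FOS, ZFP36 and SGK1 rose by 0.41, 0.38 and 0.28 on the log2 scale. EGR1 was 9.79 ± 0.332 and 10.04 ± 0.303 TPM and was not called. NR4A1, SIK1 and CREM had log2 fold changes of -0.05, -0.17 and -0.21, none of them called. PER1 stood at 8.84 ± 0.781 and 8.92 ± 0.577 TPM beside them (SD, n = 3 for every mean), and the part of such stimuli in the levels of the clock genes was not tested.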

How the data were processed

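The deposited table gives 1 TPM value per gene and library, rounded to 2 decimals by the authors. The submitters' processing notes name fastp, RSEM and the build GRCh38.p13, with no versions. The annotation and strand setting are not given in the sources used here. Read depth cannot be recovered from TPM and is unknown, and no counting error is given. Columns were matched to samples by title, leaving 0 without a sample. Identifiers were paired with symbols for all 72 listed genes, and coordinates came from GENCODE 29 (GRCh38).

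Genes whose mean over the 6 libraries reached 1 TPM were fitted as log2(TPM + 1) in limma 3.58.1 (R 4.3.3; lmFit, eBayes with trend, group as the only term), with Benjamini-Hochberg adjustment over all 13722 genes. A fold change on this scale understates that of low genes. The procedure was tested on simulated data. A gene was called at an adjusted p under 0.05. The members and lists were chosen with earlier results of these data known. All members, CHRM3 and the tested genes of the lists could be named. List genes under the limit that are named were chosen after their values were seen. Alternatives varied the pseudocount, the limit on low values, the scaling, the trend, a replicate term and the libraries included. RefSeq promoter windows were searched for exact words. Some genes of the lists are counted but not reported here by name.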

Additional observations from a re-analysis of the deposited data

How the results depend on the processing

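The number of clock genes called, 3 with 3 lower, fell to 0 with 0 lower after median-of-ratios scaling, after quantile normalization and when an absolute log2 change of 1 or more was also required, which also left 0 of the other clock genes called. With the replicate number as a block it was 1, with 1 lower (NR1D1). The deviations of same-numbered libraries correlated at -0.02, 0.034 and 0.033, and not every library correlated best with its own number. With 3 libraries per group, such values cannot show whether the numbers pair the libraries. When single libraries were left out, 2 to 3 genes were called, with 2 lower and 0 to 1 higher (CLOCK, without control replicate 1), and 6 to 8 of the other clock genes. The sign of CRY1, not called, turned to 0.029 and 0.013 with median-of-ratios scaling and quantile normalization, and its log2 fold change ran from -0.076 to 0.018 without single libraries. For PER1 that range was -0.055 to 0.061, with values of -0.055 without control replicate 2, and -0.018 and -0.0049 without knockdown-labelled replicates 1 and 2. With a limit of 5 TPM, 5 of the 10 genes were tested. The cause of these shifts was not tested. The move of the median of all genes under rescaling was only measured. Depth is unknown for these values, and no counting limit could be set.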
